A study of Rattus norvegicus with 9 samples.

Results

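Injured proximal tubule (iPT) nuclei were all nuclei that the authors labelled iPT in a single-nucleus ATAC-Seq (snATAC-Seq) map of rat kidney. They numbered 5226 of 53298 nuclei, alongside 9783 nuclei labelled proximal straight tubule (PST) and 14293 labelled proximal convoluted tubule (PCT). snATAC-Seq cuts open chromatin with a transposase in each nucleus and places nuclei with similar open regions close together on a 2-dimensional UMAP. The question was where iPT nuclei lay on that UMAP, which labels they bordered, and whether their placement differed between treatments.

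The kidneys came from Sprague-Dawley rats, whose age the labels give as 6 weeks. The study's methods give 6 weeks as a length of treatment that began after surgery. Whether the label states an age is therefore uncertain. Control rats had a sham operation. Per the labels, all other rats lost 1 kidney, although the study's methods do not name this operation for Amiloride rats, and received weekly subcutaneous deoxycorticosterone acetate (DOCA) at 50 mg/kg, with salt in the drinking water, which gives hypertension with low renin. DOCA rats received vehicle by gavage. Finerenone rats also received this nonsteroidal mineralocorticoid receptor antagonist at 10 mg/kg/d, Spironolactone rats this steroidal antagonist at 50 mg/kg/d, and Amiloride rats this blocker of the epithelial sodium channel at 20 mg/kg/d. Because uninephrectomy and salt went with DOCA in the DOCA, Finerenone and Spironolactone groups, they cannot be told apart from DOCA here. Each group had 2 libraries, 1 from the scATAC kit and 1 from the Multiome kit, except Amiloride with 1 Multiome library. Libraries held from 1817 to 15235 nuclei, of which 57 to 1742 were iPT.

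The proximal tubule reabsorbs most of the filtered salt, glucose and amino acids. Its convoluted part (PCT) begins at the glomerulus and its straight part (PST) descends toward the medulla. Injured proximal tubule cells lose part of this transport program and open genes such as Havcr1 (the receptor KIM-1), Vcam1 (an adhesion molecule), Lcn2 (an iron-carrier binding protein) and Spp1 (osteopontin, a secreted phosphoprotein). Accessibility at these marker genes was not analysed here, since the files used hold labels and coordinates only, so the iPT label was taken as the authors gave it. Labels and UMAP come from the same accessibility data, and that iPT nuclei lie together is therefore not a finding.

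2 libraries stood apart from the others in where their iPT nuclei lay, the Control Multiome and the Amiloride library. Their library codes share a stem, yet their labels give different treatments, so by the labels these 2 libraries cannot share an animal. The codes of both DOCA, both Spironolactone and both Control libraries also share a stem. Whether the libraries of such a group share an animal is not stated. Where they do, the SDs and p-values measure only the spread between libraries. Border tests and the interior and position values are given also without the Control Multiome and Amiloride libraries. Libraries of the same kit shared cell barcodes, 53 to 244 for a pair of Multiome libraries and 5 to 13 for a pair of scATAC libraries, and 13 such shared barcodes were iPT in both libraries of a pair.

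Nearly all iPT nuclei formed 1 connected area of the map with a thin middle. When iPT nuclei no more than 0.5 UMAP units apart were joined, 5138 of them (98.3%) formed 1 connected island, and the other 88 lay scattered in 35 small islands of at most 17 nuclei. Within the large island the nuclei thinned to 12 in a strip 0.25 units wide around UMAP 1 = -2.625, between strips that held up to 251 nuclei on its left and up to 435 on its right. The island was divided there, at a line chosen after the map was seen. The right part, called the main body, held 4368 nuclei with its median at 0.31 on UMAP 1 and -0.65 on UMAP 2, on the upper rim of the PST and PCT nuclei. The left part, called the left patch, held 770 nuclei with its median at -3.88 and 0.48, beyond the PST nuclei and toward the myofibroblasts. Only 32 nuclei lay within 0.25 units of the line.

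**Figure D1:**
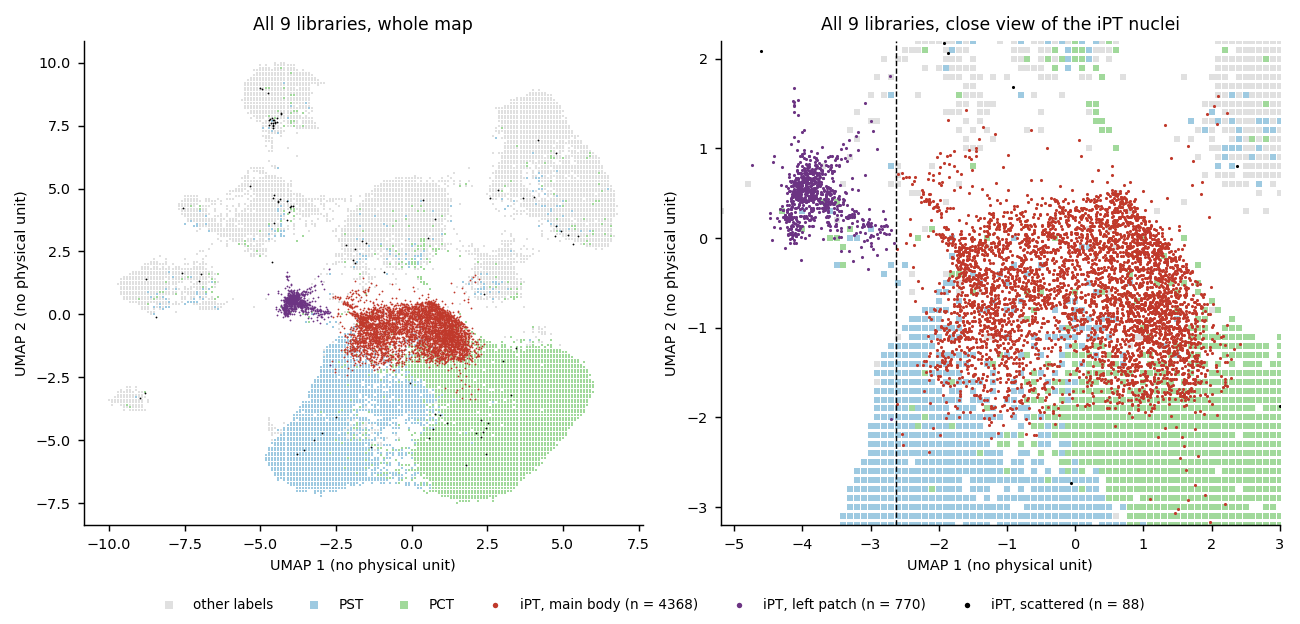
UMAP 1 against UMAP 2 for all 9 libraries, the whole map on the left and a close view on the right, with iPT nuclei as points and the other labels as filled bins of 0.1 units. The 4368 nuclei of the main body cap both PST and PCT, the 770 nuclei of the left patch lie beyond the dashed line at UMAP 1 = -2.625, and 88 scattered nuclei lie among other labels.

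Pooled over all libraries, the main body bordered both segments of the proximal tubule about equally, but libraries differed. Neighbours were the 15 nearest nuclei of any library on the UMAP. On average 88.9% of the neighbours of a main body nucleus were iPT, 5.33% were PCT and 4.52% were PST, and every other label took less than 0.5%. At least 1 PST nucleus was among the neighbours of 1199 main body nuclei (27.4%, 95% exact binomial interval 26.1 to 28.8), and at least 1 PCT nucleus among those of 1129 (25.8%, 24.5 to 27.2). Loop of Henle (LOH), the segment that follows the PST, was next with 174 nuclei (3.98%). By library, the log2 ratio of PST to PCT neighbours ran from -1.41 in Control scATAC, of 41 nuclei, to 0.50 in Finerenone Multiome. It was -0.96 in Finerenone scATAC. Over all libraries, the nearest nucleus of another label was PCT for 41.0% and PST for 37.0% of the main body, at a median distance of 0.089 units. Libraries differed in this order. PST came first in Control Multiome (35.0% against 22.4%), DOCA scATAC (40.7% against 38.9%) and Spironolactone scATAC (40.5% against 39.5%). PCT came first in the others, with 43.9% against 19.5% in Control scATAC. In Control Multiome podocytes, the filter cells of the glomerulus, were nearest for 13.1%, endothelial cells for 12.6% and LOH for 11.5%.

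The 2 segments met different sides of the main body. Of the 1893 nuclei at or left of UMAP 1 = 0, 42.1% had a PST neighbour and 16.1% a PCT neighbour. Of the 2475 nuclei right of it the order was turned, with 16.2% and 33.3%. The right side held 51.9% to 60.8% of the main body in 7 of 9 libraries. It held 78.0% (62.4–89.4) in the Control scATAC library, of 41 nuclei, and 23.5% (17.6–30.3) in the Control Multiome library, of 183. The 2 Control libraries thus lay at opposite ends of the range. Without the upper left corner of the main body, which is described with the shares of nuclei, the right side held 46.2% (35.8–56.9) of the 93 Control Multiome nuclei left and 80.0% (64.4–90.9) of the 40 in Control scATAC. The corner lies wholly on the left side, so leaving it out can only raise the right share.

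The left patch was more closed. On average 97.1% of the neighbours of its nuclei were iPT, and 592 of its 770 nuclei (76.9%) had no neighbour of another label, against 2121 of 4368 (48.6%) in the main body. A PST neighbour was present for 89 nuclei (11.6%) and a PCT neighbour for 87 (11.3%). Over all libraries, the nearest nucleus of another label was PST for 43.6%, PCT for 29.0% and a podocyte, the filter cell of the glomerulus, for 21.6%, at a median distance of 0.168 units. The order differed by library. Podocytes came before PCT in both DOCA libraries (40.6% against 6.25% and 32.6% against 17.4%) and in Control Multiome (28.0% against 25.2%), they were nearest for 0 of 12 nuclei in Control scATAC, and PCT came first in Amiloride (45.1%). The median of the podocytes themselves lay 6.67 units from that of the patch. The nearest label median was that of myofibroblasts, matrix-forming cells, at 2.74 units, and 1 patch nucleus had a myofibroblast neighbour.

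The 88 scattered nuclei lay mostly among other labels. Of the 88, 64 had no iPT neighbour at all, and for 1 iPT was the most frequent label. The label most often the commonest among their neighbours was intercalated cells (IC), the acid-base cells of the collecting duct, for 19 nuclei, followed by endothelial cells for 15, PCT for 14, LOH for 10 and PST for 9. Scattered nuclei took 1.02% to 2.89% of iPT nuclei in 7 libraries, 3.37% in Control Multiome and 7.02% (1.95–17.0) in Control scATAC, where they were 4 of 57.

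The share of each library in the main body and in the left patch differed widely, and the parts did not move together. The parts were drawn from the map itself, so the values that follow are descriptions with no test. Exact 95% intervals cover counting error only. In Control, 1.67% (1.20–2.26) of the nuclei of the scATAC library and 3.59% (3.10–4.14) of those of the Multiome library lay in the main body, a mean of 2.63% ± 1.36 (SD, n = 2). In DOCA the main body took 18.4% (16.9–20.0) and 17.8% (17.0–18.6), a mean of 18.1% ± 0.453 (SD, n = 2). Both DOCA libraries were above both Control libraries, by a ratio of 11.0 within the scATAC kit and 4.95 within the Multiome kit.

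With a mineralocorticoid receptor antagonist or amiloride the main body was smaller than in both DOCA libraries, with separate intervals, in 4 of 5 libraries. The Finerenone libraries disagreed. Their main body took 17.2% (15.5–19.0) of nuclei with the scATAC kit, close to DOCA, and 5.48% (4.92–6.08) with the Multiome kit. In Spironolactone both kits gave similar values, 7.17% (6.23–8.20) and 6.96% (6.57–7.38), a mean of 7.07% ± 0.143 (SD, n = 2). The Amiloride library had 1.94% (1.66–2.27), inside the range of the Control libraries.

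The left patch ran from 0.489% to 4.28% of nuclei over the 9 libraries and up to 1.73% without Control Multiome. It took 1.295% (0.887–1.82) and 1.01% (0.812–1.23) of nuclei in the DOCA scATAC and Multiome libraries, 1.32% (0.848–1.96) and 1.52% (1.23–1.85) in those of Finerenone, and 0.772% (0.478–1.18) and 0.893% (0.749–1.06) in those of Spironolactone. The Amiloride library had 1.73% (1.46–2.03). Control held both extremes, with 0.489% (0.253–0.852) in its scATAC library and 4.28% (3.74–4.87) in its Multiome library. DOCA was thus above Control within the scATAC kit by a ratio of 2.65 and below it within the Multiome kit by a ratio of 0.235.

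The patch consequently took very different shares of the iPT label itself. It held 6.50% and 5.28% of the iPT nuclei of the DOCA libraries and 9.59% and 11.2% of those of Spironolactone. In Finerenone it held 7.04% of the scATAC and 21.4% of the Multiome library. It held 21.1% (11.4–33.9) of the iPT nuclei of Control scATAC, 45.7% (40.0–51.4) of those of Amiloride and 52.5% (47.6–57.4) of those of Control Multiome. A count of all iPT nuclei in Control Multiome or Amiloride was therefore in large part a count of patch nuclei. Without the patch, the iPT share of all nuclei in Control Multiome was 3.87% rather than 8.15%, and in Amiloride 2.05% rather than 3.78%, while in DOCA Multiome it was 18.0% rather than 19.1%.

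**Figure D2:**
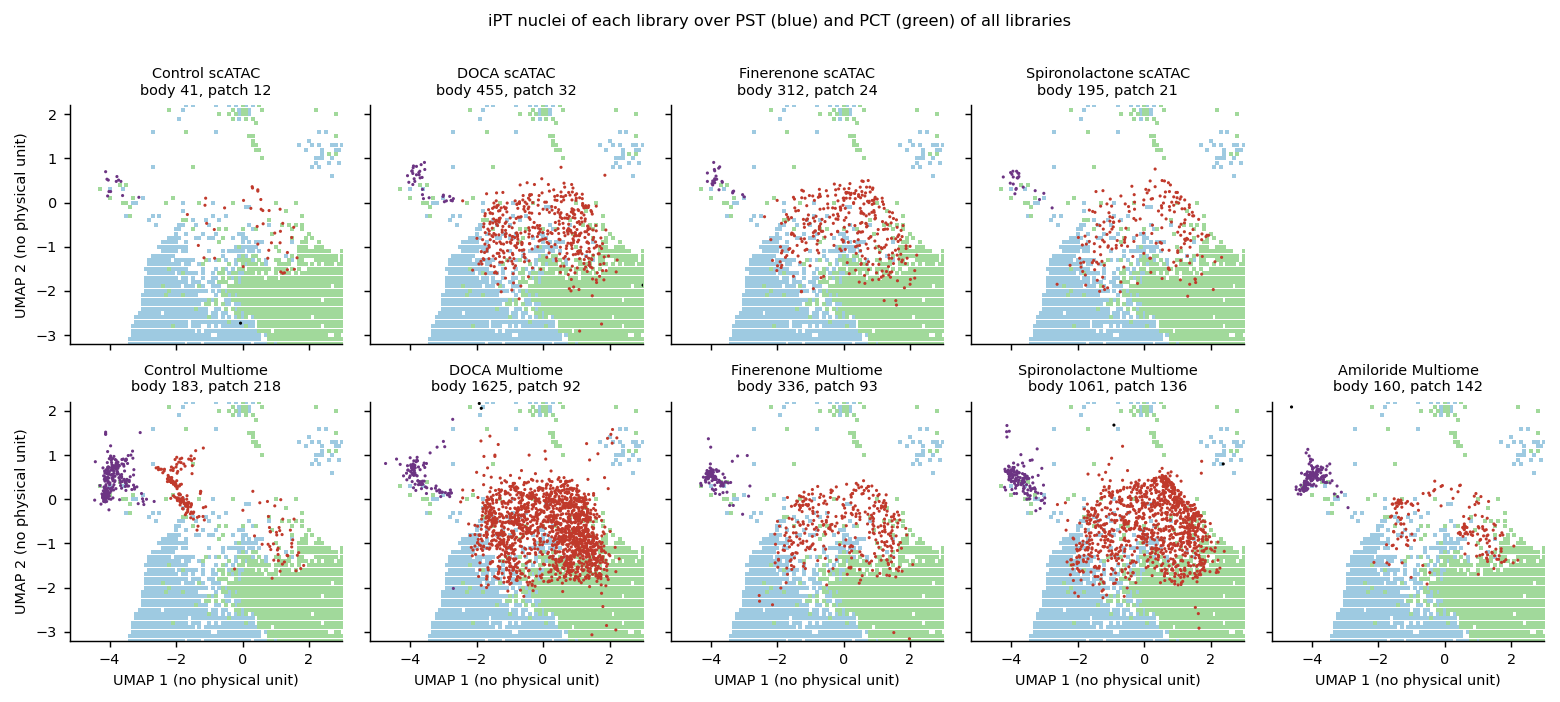
iPT nuclei of each library on UMAP 1 and UMAP 2 (main body red, left patch purple, scattered black) over bins of 0.1 units that hold PST (blue) or PCT (green) nuclei of any library, 1 panel per library with the scATAC kit above and the Multiome kit below. The main body holds 1625 nuclei in DOCA Multiome and 160 in Amiloride Multiome while the patch holds 92 and 142, and the Control Multiome library forms narrow branches in the upper left corner.

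A second uneven feature was the upper left corner of the main body, left of UMAP 1 = -1 and above UMAP 2 = 0. These limits were also chosen after the map was seen. Of the 183 main body nuclei of Control Multiome, 90 (49.2%, 41.7 to 56.7) lay in this corner, against 0.625% to 2.71% in the other 8 libraries, with 44 of 1625 nuclei in DOCA Multiome and 1 of 41 in Control scATAC. With the limits moved by 0.25 units inward or outward, Control Multiome had 67 or 124 nuclei there. DOCA Multiome had 13 or 107 of its 1625 nuclei. With the outward limits Finerenone Multiome had 33 of 336 and Amiloride 26 of 160, so the other libraries rose as well. Outside the corner, the main body took 1.63% (1.17–2.21) of the nuclei of Control scATAC and 1.83% (1.48–2.23) of those of Control Multiome, whose intervals overlap, against 18.2% and 17.3% in DOCA. With the moved limits the Control Multiome value was 2.28% or 1.16%. At the original limits the share outside the corner was 1.93% (1.65–2.25) in Amiloride, 7.06% and 6.84% in Spironolactone, and 16.7% and 5.35% in Finerenone. Leaving out the corner lowers Control Multiome by construction, so the nearness of the 2 Control values is a description only.

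**Figure D3:**
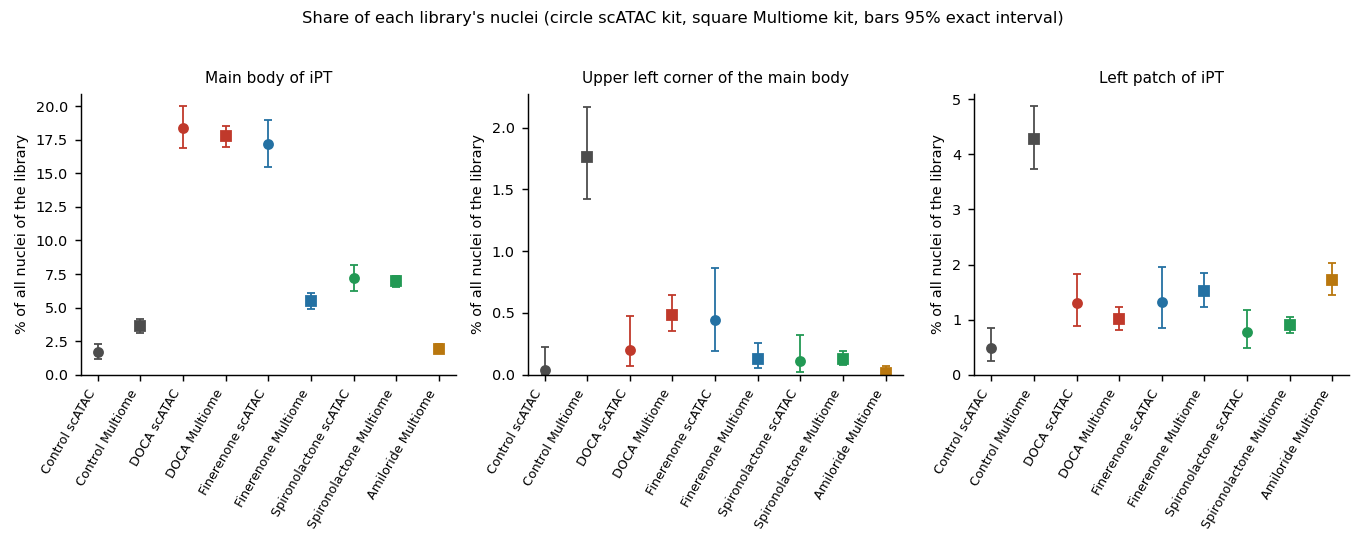
Percent of all nuclei of each library in the main body, in its upper left corner and in the left patch, with 1 point per library and 95% exact binomial intervals. The main body is at 18.4% and 17.8% in DOCA and at 1.67% to 3.59% in Control, while the corner and the patch are highest in Control Multiome, at 1.77% and 4.28%.

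Control Multiome nuclei of the main body also lay mostly among nuclei of their own library. Libraries were thinned to 1817 nuclei each, and the neighbours were found again. Of the iPT neighbours of Control Multiome main body nuclei, 63.2% came from the same library, which supplied 4.52% of the thinned main body. In the other 8 libraries this share was 0.845 to 1.41 times the library's part of the main body. Outside the corner it was 36.2% for Control Multiome against 2.22%, from 31 thinned nuclei. In the left patch the share was 37.5% against 29.7% for Control Multiome and 33.7% against 19.5% for Amiloride, and over the 9 libraries it was 0.992 to 1.82 times the library's part of the patch. Results with neighbours from other libraries only are given beside the tests.

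Whether borders differed between treatments was tested over libraries. For each ordered pair of labels, the share of nuclei of the first label with at least 1 nucleus of the second among their neighbours was taken per library, and log2 odds were compared with limma, with kit as a term. All 73 pairs that passed a filter on abundance were fitted together, of which 15 held iPT. Libraries are the replicates, and since nothing states that each came from its own animal, the p-values measure the spread between libraries only.

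Between DOCA and Control, 1 of 73 pairs passed (1.37%), and it was an iPT pair. PCT nuclei had an iPT neighbour more often in DOCA. In Control, 2.29% (1.48–3.36) of PCT nuclei of the scATAC library and 2.27% (1.35–3.56) of those of the Multiome library bordered iPT, and in DOCA 14.1% (11.6–16.9) and 17.7% (15.7–19.9). The groups did not overlap, and the log2 odds rose by 2.98 (SE 0.52, adjusted p = 0.034 with limma), with 2.79 within the scATAC kit and 3.18 within the Multiome kit. iPT nuclei also took more of the proximal tubule nuclei (iPT, PST and PCT together) in DOCA. They were 2.86% and 19.7% in Control and 30.9% and 43.5% in DOCA, scATAC library first. Whether shares bordering iPT differed beyond this abundance was not tested, here or in the comparisons below. The iPT nuclei bordered were not alike in the 2 Control libraries. Of these PCT nuclei, 5 of 25 in Control scATAC (0.457% of its PCT nuclei) and 14 of 18 in Control Multiome (1.77%) had a main body neighbour and none had a left patch neighbour, against 90 of 100 and 210 of 226 with a main body neighbour in DOCA (12.7% and 16.5%). Leaving out either Control or either DOCA library ended the call, with adjusted p between 0.149 and 0.296 in those 4 fits, while the change stayed between 2.68 and 3.29. The call was also lost with 5 neighbours, with neighbours from other libraries only, with at least 3 of 15 neighbours required, and without Control Multiome and Amiloride, with adjusted p between 0.0612 and 0.167 by limma and log2 differences between 2.79 and 3.62.

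The PST side showed values of the same order without passing. In Control, 2.26% (1.36–3.50) and 3.35% (2.27–4.75) of PST nuclei had an iPT neighbour, and in DOCA 10.7% (7.83–14.2) and 17.8% (15.4–20.3). The groups did not overlap, at a log2 difference of 2.49 (SE 0.59, adjusted p = 0.106 with limma). Of these PST nuclei, 5 of 19 in Control scATAC and 10 of 30 in Control Multiome bordered the main body, against 35 of 42 in DOCA scATAC and 150 of 175 in DOCA Multiome. Across all libraries 491 of 648 PST nuclei and 830 of 1029 PCT nuclei that bordered iPT bordered the main body, while 25 and 9 bordered the left patch.

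Seen from the iPT nuclei, the log2 differences were smaller. A PST neighbour was present for 17.5% (8.75–29.9) and 13.7% (10.6–17.4) of iPT nuclei in Control and for 28.7% (24.7–32.9) and 28.0% (25.9–30.1) in DOCA, at a log2 difference of 1.07 (SE 0.47, adjusted p = 0.266 with limma). A PCT neighbour was present for 24.6% (14.1–37.8) and 13.5% (10.4–17.2) in Control and for 23.2% (19.5–27.2) and 26.1% (24.0–28.2) in DOCA, where the groups overlapped, at a log2 difference of 0.51 (SE 0.52, adjusted p = 0.602 with limma). Restricted to the main body, a PST neighbour was present for 14.6% and 17.5% of nuclei in Control and 29.0% and 28.6% in DOCA. On the PCT side of the main body, Control lay on both sides of DOCA. There PCT was the commonest other label among neighbours for 29.3% (16.1–45.5) and 9.29% (5.51–14.5) of nuclei in Control. In DOCA it was so for 17.1% and 20.4%.

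None of 73 pairs (0%) passed with limma between Finerenone and DOCA, with 3 at an unadjusted p under 0.05 and no iPT pair among them. iPT neighbours were present for 12.6% (9.91–15.7) and 7.09% (5.74–8.63) of PCT nuclei, and for 9.54% (6.73–13.0) and 4.83% (3.81–6.02) of PST nuclei, lower in the Multiome library in both cases. The log2 differences from DOCA were -0.84 (SE 0.52) for PCT and -1.14 (SE 0.59) for PST, both with adjusted p = 0.794 by limma. From the side of iPT nuclei, 22.3% and 26.2% had a PST neighbour and 26.4% and 22.8% a PCT neighbour, at log2 differences of -0.30 (SE 0.47) and -0.0021 (SE 0.52).

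None of 73 pairs (0%) passed between Spironolactone and DOCA either, with 4 at an unadjusted p under 0.05 by limma, 1 of them an iPT pair. That was PCT to iPT, where 6.65% (5.25–8.29) and 7.93% (7.13–8.79) of PCT nuclei had an iPT neighbour, both below both DOCA libraries, at a log2 difference of -1.26 (SE 0.52, adjusted p = 0.548 with limma). For PST nuclei the shares were 6.54% (4.88–8.56) and 5.87% (5.12–6.68), at -1.29 (SE 0.59, adjusted p = 0.548). Among iPT nuclei, 29.7% and 27.8% had a PST neighbour and 25.6% in both libraries a PCT neighbour, at log2 differences of 0.03 (SE 0.47) and 0.08 (SE 0.52) from DOCA.

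The single Amiloride library was compared with DOCA on the assumption that it varies like the other groups. Its library code is the only one marked New, while all others are marked Old. What the mark stands for is not stated, and it cannot be told apart from the treatment. None of 73 pairs (0%) passed with limma, with 12 at an unadjusted p under 0.05, of which 6 held iPT. An iPT neighbour was present for 2.90% (2.35–3.53) of its PCT nuclei and 2.95% (1.53–5.09) of its PST nuclei, near the Control libraries. The log2 differences from DOCA were -2.62 (SE 0.67, adjusted p = 0.147) and -2.38 (SE 0.75, adjusted p = 0.192). Among its iPT nuclei, 12.2% (8.79–16.4) had a PST neighbour and 16.1% (12.2–20.6) a PCT neighbour, at -1.45 (SE 0.61, adjusted p = 0.293) and -0.61 (SE 0.66, adjusted p = 0.644). Within its main body these shares were 16.2% and 20.0%.

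**Figure D4:**
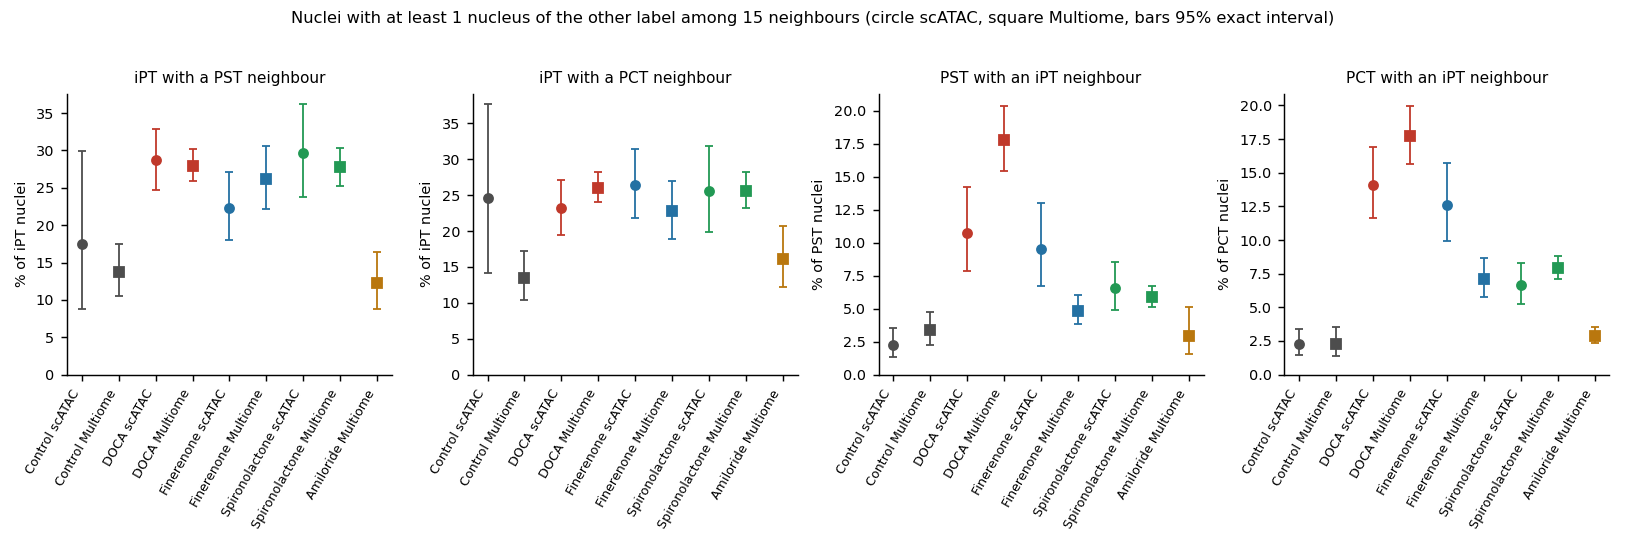
Percent of iPT nuclei with a PST or a PCT neighbour (first 2 panels) and of PST or PCT nuclei with an iPT neighbour (last 2 panels) among 15 neighbours, with 1 point per library and 95% exact binomial intervals. PCT nuclei with an iPT neighbour are at 2.29% and 2.27% in Control against 14.1% and 17.7% in DOCA.

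The border with macrophages, described because its values were seen, did not pass between DOCA and Control (adjusted p = 0.179 with limma). In Control, 0 of 57 and 0 of 415 iPT nuclei had a macrophage neighbour, and in DOCA 6 of 492 and 36 of 1742 did. No fold is given because Control was at 0. Macrophages were the nearest label median to the main body, at 3.44 units. Of the main body 60 nuclei (1.37%, 1.05 to 1.76) had a macrophage neighbour, and of the 770 nuclei of the left patch 0 had one, which allows a share of up to 0.390%.

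Last, 8 placement values per library were compared between groups by exact permutation, exchanging libraries of 1 kit between groups, where 120 distinct regroupings allow no p below 0.00833. None of the 8 passed after adjustment, and 1 had an unadjusted p under 0.05. That was the share of interior nuclei, those with 15 of 15 iPT neighbours (F statistic, which has no direction, exact permutation p = 0.0167, adjusted p = 0.133). It was 57.9% (44.1–70.9) and 61.2% (56.3–65.9) in Control, 50.0% (45.5–54.5) and 48.5% (46.1–50.9) in DOCA, 52.8% and 53.3% in Finerenone, 48.4% and 49.9% in Spironolactone, and 67.8% (62.3–73.0) in Amiloride. Libraries of a group lay close together, and both Control libraries and Amiloride were above all others. Among main body nuclei alone the values were 53.7% and 47.0% in Control, 49.0% and 47.7% in DOCA, and 58.1% in Amiloride (exact permutation p = 0.392), so the ordering did not hold there. With neighbours from other libraries only, the exact permutation p for all iPT nuclei was 0.175. Without the Control Multiome and Amiloride libraries the exact permutation p was 0.0833, in a design that allows none below 0.0417.

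**Figure D5:**
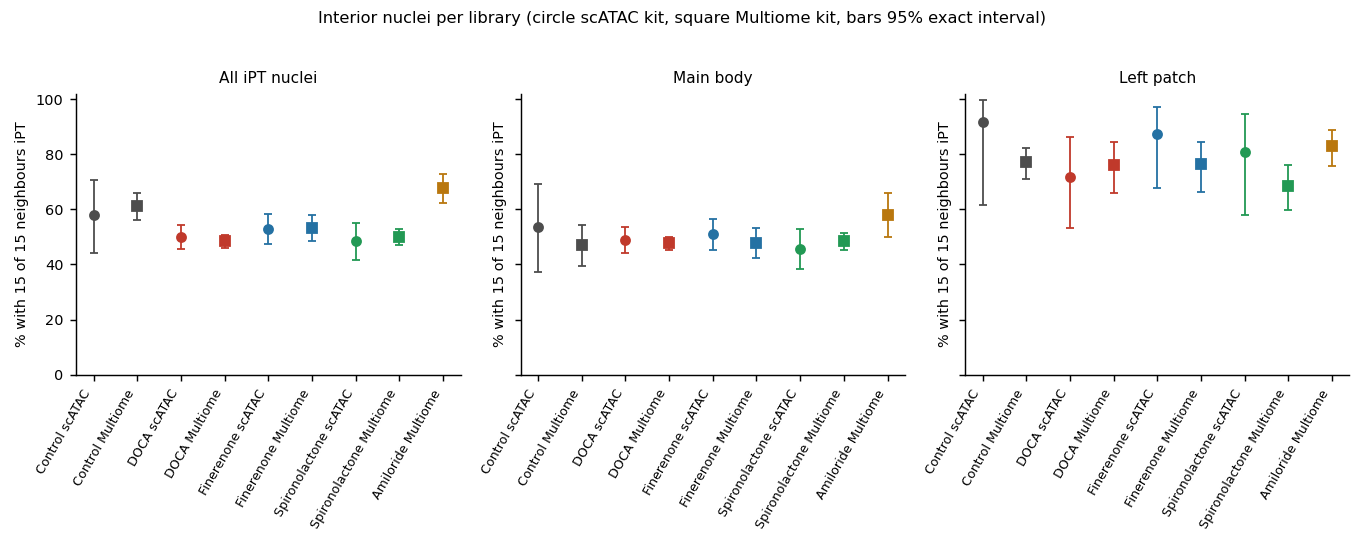
Percent of iPT nuclei with 15 of 15 iPT neighbours in each library, for all iPT nuclei, the main body and the left patch, with 95% exact binomial intervals. For all iPT nuclei Control and Amiloride lie at 57.9% to 67.8% and the other libraries at 48.4% to 53.3%, while in the main body Control Multiome is at 47.0%.

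With all 9 libraries, none of the position and distance values passed. The mean of UMAP 1 was -0.74 and -2.66 in Control, -0.20 and -0.06 in DOCA, -0.14 and -0.86 in Finerenone, -0.36 and -0.25 in Spironolactone and -1.90 in Amiloride (exact permutation p = 0.275, adjusted p = 0.773). The joint position on both axes, compared by energy distance, gave an exact permutation p of 0.308 (adjusted p = 0.773). The 2 Control libraries were 1.61 apart on that scale, more than Control scATAC was from any other library, and Control Multiome was nearest to Amiloride at 0.32. The largest distance among both DOCA, both Spironolactone and the Finerenone scATAC libraries was 0.0341. The exact permutation p was 0.6 for mean UMAP 2, 0.483 for the mean share of iPT neighbours, 0.425 and 0.733 for the median distances to PST and PCT, and 0.842 for the ratio of PST to PCT neighbours, with adjusted p from 0.773 to 0.842. Mean UMAP 2 ran from -0.62 to -0.44 in 7 libraries and was 0.37 in Control Multiome and 0.081 in Amiloride. It depended on which libraries entered, with an exact permutation p of 0.0104 without Control Multiome, 0.0167 without Control scATAC and 0.0417 without Control Multiome and Amiloride, each the smallest that its design allows, and adjusted p of 0.0833, 0.133 and 0.333. Without Control Multiome and Amiloride the exact permutation p was 0.458 for mean UMAP 1 and 0.458 for the joint position. Median distances to the nearest PST nucleus ran from 0.166 to 0.231 units and those to the nearest PCT nucleus from 0.174 to 0.256.

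The left patch is bounded on UMAP 1 by the line that divided the island, so its position is a description. Its median on UMAP 1 ran from -4.01 in Amiloride to -3.68 in DOCA scATAC and on UMAP 2 from 0.45 to 0.56, with the 12 nuclei of Control scATAC at -3.89 and 0.48, and the middle 50% of all patch nuclei lay between -4.05 and -3.64 on UMAP 1. In the main body, median UMAP 1 ran from 0.14 to 0.61 in 8 libraries and was -1.73 in Control Multiome.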

How the data were processed

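snATAC-Seq was measured in whole kidneys, 9 libraries. The authors aligned reads to rn6 with Cell Ranger ATAC 1.1.0, filtered and merged nuclei in Signac 1.3.0, corrected batches with Harmony, clustered, and named clusters from accessibility at marker genes. Cell Ranger 6.0.1 and Seurat 4.0.1 are listed in the submitters' processing notes for the Multiome libraries. The deposited files hold, per nucleus, a library code, a treatment, a cell type name and UMAP coordinates, scores without a physical unit. Counts per peak and depth per nucleus were not analysed here. How doublets were treated was not determined here.

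Groups came from the labels and the treatment recorded per nucleus. The labels do not pair library codes with samples. Within a group, the kit of a code was taken from which libraries share its barcodes. The study collected kidneys at 2 time points, and which library came from which was not determined here.

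The 15 nearest nuclei on the UMAP were found for every nucleus. Source labels needed at least 20 nuclei in every library, and pairs a pooled share of 1% to 99%. This kept 73 of 132 ordered pairs. Log2 odds, with 0.5 added, were fitted with limma 3.58.1 in R 4.3.3 on group and kit over all libraries, with Benjamini-Hochberg adjustment over 73 pairs and a threshold of 0.05. The 8 placement values had exact permutation tests (F of group after kit, 2880 assignments within kits), adjusted over 8. Named pairs were iPT to PST, iPT to PCT and their reverses, plus up to 3 other iPT pairs past the threshold. Intervals are exact (Clopper-Pearson) at 95%. A count of 0 was given a limit of 3 counts. Both tests were tested on simulated data. Python 3.11.15 with scipy 1.17.1 was used. The members and lists were chosen with earlier results of these data known.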

Additional observations from a re-analysis of the deposited data

How the results depend on the processing

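Between DOCA and Control, the pairs past the threshold numbered 1 as reported, 0 with 5 neighbours, with neighbours from other libraries only, with at least 3 of 15 neighbours required, and without the Control Multiome and Amiloride libraries. They numbered 2 on libraries thinned to equal nuclei, without the filter on the pooled share and with iPT nuclei of the main body only, 3 with 50 neighbours or a trended and robust variance, and 4 on the arcsine square root scale. Leaving out 1 library gave 0 to 1. Spironolactone against DOCA gave 1 on thinned libraries, and Amiloride against DOCA 1 with 50 neighbours or a trended and robust variance. PCT to iPT between DOCA and Control kept its direction in all 21 alternatives fitted and lost its call in 8 (adjusted p from 0.00102 to 0.296 with limma). PST to iPT passed in 4 of 21 (adjusted p from 0.00996 to 0.473), iPT to PST in 1 of 21 (arcsine scale, adjusted p = 0.0487), and Amiloride against DOCA passed for PCT to iPT in 1 of 18.

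Some small log2 differences from the iPT side changed sign, none of them past the threshold. iPT to PCT between DOCA and Control was -0.035 on thinned libraries and -0.018 without Control Multiome, with or without Amiloride, and ran up to 1.04 leaving out 1 library. For Finerenone against DOCA, iPT to PST was 0.31 with at least 3 of 15 neighbours, and iPT to PCT was 0.048 with 50 neighbours, 0.46 on thinned libraries, 0.057 in the main body only, and -0.34 to 0.34 leaving out 1 library. For Spironolactone against DOCA, iPT to PST was -0.30 with 50 neighbours, -0.054 on thinned libraries, -0.20 with neighbours from other libraries and -0.0049 to 0.066 leaving out 1 library, and iPT to PCT was -0.15 with neighbours from other libraries and -0.26 to 0.42 leaving out 1 library. For Amiloride against DOCA, iPT to PCT was 0.29 on thinned libraries. Of the 8 placement values, 1 passed (the interior share, exact permutation p = 0.00212, adjusted p = 0.0169) when labels were permuted over all libraries without regard to kit. The unadjusted exact permutation p of the interior share, 0.0167 as reported, was 0.117 on thinned libraries, 0.175 with neighbours from other libraries only, 0.392 in the main body only, 0.0667 without Finerenone scATAC, 0.05 without Spironolactone scATAC and 0.0833 without Amiloride, with or without Control Multiome. That of mean UMAP 2, 0.6 as reported, was 0.0104 to 0.0417 in 3 settings without a Control library. The largest island held 97.7% of iPT nuclei with steps of 0.25 units and 98.8% with steps of 1. The left patch held 719 to 830 nuclei when its line was moved by up to 0.5 units. The cause of these differences was not tested. The alternatives with main body nuclei only, without Control Multiome and Amiloride, and with moved lines were chosen after seeing the data.

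With 2 libraries in a group, and 1 in Amiloride, the interval of a difference is wide, and a p that misses the threshold does not show equal placement. Counts under 50 iPT nuclei in the main body or the left patch, as in Control scATAC, limit every share of that library. UMAP distances are not linear in accessibility. The labels do not pair animals between groups, so libraries were matched between groups by kit only. Kit, the factor the groups share, was a term in every limma fit but one alternative, which gave 1 pair between DOCA and Control.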

Other observations

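By the share of nuclei with only same-label neighbours, the iPT label was less closed than most labels. All 15 neighbours shared the label for 51.9% of iPT nuclei, against 65.1% of PST, 61.6% of PCT and 68.6% of LOH nuclei, 53.3% of macrophages and 48.0% of principal cells of the collecting duct. The order against PST turned with the measure. The mean share of same-label neighbours was 88.7% for iPT, 88.2% for PST, 88.6% for principal cells, 92.2% for PCT and 91.9% for LOH. An iPT neighbour was present for 6.62% of PST and 7.20% of PCT nuclei, and beyond the proximal tubule for 5.60% of podocytes, 5.09% of macrophages, 4.78% of endothelial cells and 4.45% of intercalated cells. These are descriptions over all nuclei, since labels and map share their source.

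The share of all nuclei that were scattered iPT nuclei ran from 0.0978% in Finerenone Multiome to 0.275% in Finerenone scATAC and Control Multiome, while the main body ran from 1.67% to 18.4%. In Amiloride, where 9 nuclei were scattered, their median lay at -4.59 on UMAP 1 and 7.62 on UMAP 2, among intercalated cells, whose median was at -4.43 and 8.80.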
